A study of Homo sapiens with 12 samples.

Results

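The heat shock proteins and chaperonins are the cell's protein-folding machines, and their transcripts were followed here in BRAF V600E melanoma lines given PLX4032, an inhibitor of the mutant kinase. The genes were taken by name. They are those whose symbol begins with HSPA, HSPB, HSPD, HSPE, HSPH, HSP90, DNAJA, DNAJB or DNAJC or is CCT followed by a digit of the chaperonin numbering, together with CHORDC1, STIP1 and HSF1. The table held 66 such genes among 11963 genes with a probe set of their own, and 57 of the 66 were bright enough to be tested among 7178 genes. TCP1, HSPA8, HSPA1A, HSPA1B, AHSA1 and HSF2 also fall under the naming rule and are not analysed here, because no probe set carried their symbol alone.

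Of the 12 arrays, 5 held cells given PLX4032 at 250 nM, 2 held cells at 1000 nM, and 5 held cells given the solvent alone, DMSO at 0.1%. SkMel-1, SkMel-5, SkMel-19, SkMel-28 and Malme3M, established lines that all carry BRAF V600E, gave 1 array each at 250 nM and with DMSO after 8 hours, and SkMel-19 and Malme3M also gave 1 at 1000 nM. The lines were the replicates, so in the main fits every p-value rests on how the change with drug varied from line to line. For each gene the fits also draw this spread toward that of other genes with a like signal. Differences in level between lines are taken out by those fits. No p-value has a repeat culture behind it. No line without the mutation is among the samples, and the cells were grown in serum.

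Molecular chaperones bind unfolded or partly folded proteins and release them in cycles of ATP binding and hydrolysis. HSP70 proteins take up short exposed stretches, J proteins (the DNAJ families) deliver the substrates and start the ATPase, and exchange factors reset the cycle. HSP90, with a set of cochaperones, completes the folding of kinases and receptors, the RAF kinases among them. The chaperonins are closed chambers: HSPD1 with its lid HSPE1 works in mitochondria, and CCT, a ring of related subunits in the cytosol, folds actin and tubulin. Small heat shock proteins hold unfolded proteins without ATP. HSF1 is the transcription factor that raises many of these genes when unfolded proteins accumulate, through repeats of GAA and its reverse TTC in their promoters called heat shock elements.

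Promoter letters are shown first, because the members differ in whether a strict form of that element was found. RefSeq promoter windows (250 bases before to 50 after a transcript start, GRCh38.p14) were at hand for 59 of the 66 genes. Some genes had several windows, 79 in all. The stretches printed below for HSP90AA1, HSP90AB1 and HSPD1 belong to starts that lie inside the gene's outermost bounds. The motif searched was GAA, any 2 bases, TTC, any 2 bases and GAA, on either strand, with overlapping matches counted separately. It was in a window of 7 of those 59 genes (11.9%), against 172 of 35116 promoters (0.49%) and 29 of 6058 tested genes with a window (0.479%). The 7 were CHORDC1, DNAJA1, DNAJB6, HSP90AA1, HSP90AB1, HSPD1 and HSPA6. No CCT gene with a window held it. Printed here are the members whose response is described in full, each 5′ to 3′ on the gene's own strand with the heat shock element in capitals. The CHORDC1 stretch lies at chr11:90223050-90223169 (minus strand, with 3 overlapping matches in the capitals), DNAJA1 at chr9:33025268-33025296 (plus strand, its match just after the start), HSP90AA1 at chr14:102087112-102087140 (minus strand), HSP90AB1 at chr6:44247770-44247798 and chr6:44247823-44247851 (plus strand), and HSPD1 at chr2:197500062-197500090 (minus strand, 2 overlapping matches).
CHORDC1: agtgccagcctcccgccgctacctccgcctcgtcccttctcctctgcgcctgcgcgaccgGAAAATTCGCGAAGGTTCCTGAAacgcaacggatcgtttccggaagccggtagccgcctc
DNAJA1: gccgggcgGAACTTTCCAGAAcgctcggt
HSP90AA1: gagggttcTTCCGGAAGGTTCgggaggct
HSP90AB1, first match: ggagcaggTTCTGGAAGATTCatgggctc
HSP90AB1, second match: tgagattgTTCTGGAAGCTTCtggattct
HSPD1: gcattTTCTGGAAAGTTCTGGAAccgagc
A match is a description of the letters and not evidence of binding. A missing match does not show that a gene lacks the element, since looser forms and sites outside the windows were not searched.

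Before the members, the arrays were checked for drug action and cell identity. DUSP6, SPRY4, CCND1 and MYC, all downstream of BRAF signalling, fell at 250 nM by a log2 fold change of -5.04, -3.29, -3.09 and -2.37, and each was lower in all 5 lines. The summed signal of 6 melanocyte lineage markers was 39892 to 61899 at 250 nM, 57964 to 62666 at 1000 nM and 29964 to 57207 with DMSO. That of 3 blood markers stayed at or under 93.1 on every array. The 7 fibroblast markers summed to 621 to 2066 at 250 nM and 624 to 1764 with DMSO, while 5 keratinocyte and epithelial markers summed to 570.0 to 4951 at 250 nM and 623 to 4870.1 with DMSO. CDH1 in Malme3M made most of these upper ends (4767.8 at 250 nM and 4537.2 with DMSO). The melanocyte sums hide that TYRP1, 1 of the 6 markers, was dim in SkMel-1 (27.6 at 250 nM and 18.7 with DMSO). Among the tested markers of these lists MLANA, a melanocyte antigen, rose (0.20, SE 0.04, adjusted p = 0.01), KRT18, a keratin, fell (-0.77, SE 0.15, adjusted p = 0.00741), CDH1, an epithelial cadherin, gave 0.72 (SE 0.29, adjusted p = 0.0907), and the others did not pass. Their part in the results was not tested. Median signals ran from 102.5 to 130.4 over the 12 arrays. These are whole cultures, in which less RNA per cell and fewer cells of a kind cannot be told apart.

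At 250 nM a larger share of the chaperone genes fell than of all genes tested, and a like share rose. Of the 57 tested, 13 fell and 9 rose (limma with cell line as a block, Benjamini-Hochberg adjusted p under 0.05 over all genes tested), and 35 did not pass. The share that fell was 22.8%, where 13.1% of all genes tested fell. The share that rose was 15.8%, close to the 15.2% of all genes. The median log2 fold change was -0.05 over the members and 0.03 over all genes. Changes were small: the largest fall was 1.42-fold and the largest rise 1.70-fold. Of the 57 members, 18 (31.6%) were lower in all 5 lines, against 16.6% of all genes, and 9 (15.8%) were higher in all 5, against 20.9%. In no member did the 5 arrays at 250 nM lie wholly apart from the 5 with DMSO, a pattern found in 1.85% of all genes. The falls numbered 7 when SkMel-28 was left out and 8 without Malme3M, and the rises 5 without SkMel-19. The calls that held whichever line was left out were 7 falls (CCT2, CCT5, CCT6A, CHORDC1, DNAJA1, DNAJC2 and HSPA14) and 5 rises (DNAJB2, DNAJB4, HSPA12A, HSPA2 and HSPB1). With cell line left out of the fit no member passed. CCT7, CCT8 and HSPE1 also lost the call with arrays centred on their medians, these and DNAJC9 with no filter on low signals, and these, DNAJC9 and CCT3 with no trend of the variance. DNAJB5 lost it with no filter, with quantile normalization and with a gene's probe sets averaged, DNAJC1 with no filter, DNAJC9 with quantile normalization, and CCT8, DNAJC9 and DNAJB9 with probe sets averaged.

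**Figure D1:**
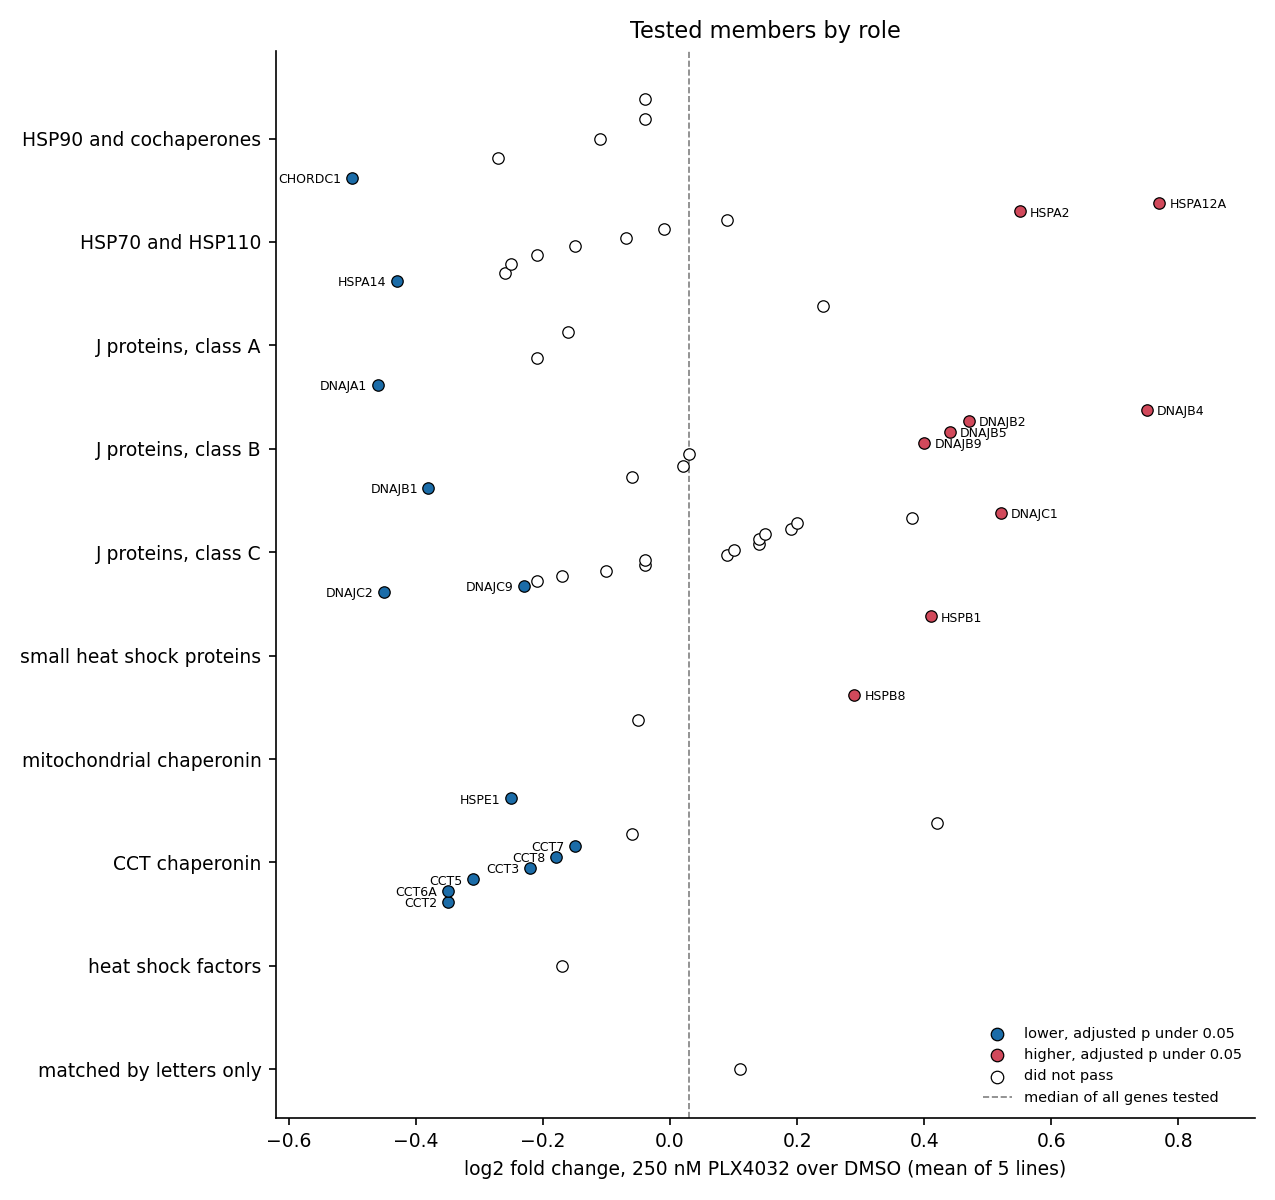
Log2 fold change of each of the 57 tested members at 250 nM PLX4032 over DMSO (horizontal axis, mean of 5 lines), grouped by role (vertical axis); points within a role are spread vertically for legibility. Blue points (13) fell, red points (9) rose, open points (35) did not pass, and the dashed line is the median of all genes tested, 0.03. The CCT subunits lie to the left except for CCT6B, and 8 of the 9 red points are class B J proteins, HSP70 genes and small heat shock proteins.

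Signals below are linear intensities and are given for SkMel-1, SkMel-5, SkMel-19, SkMel-28 and Malme3M in this order. Log2 fold changes are on the scale of log2(signal + 12). Levels are compared within a gene only, since a probe set's brightness depends on its probes.

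Of the 5 genes of the HSP90 group, CHORDC1 fell and the HSP90 genes themselves did not pass; the median of the group was -0.11. CHORDC1, a zinc-binding cochaperone of HSP90, had signals of 466, 1048, 578, 890.2 and 203 at 250 nM, against 623, 1333, 742, 1569 and 312 with DMSO. It was lower in each line, most in SkMel-28, while SkMel-5 and SkMel-28 on the drug still lay above SkMel-1, SkMel-19 and Malme3M without it. The log2 fold change was -0.50 (SE 0.09, 95% interval -0.71 to -0.29, adjusted p = 0.00551), a 1.42-fold fall. Its promoter has the run of 3 overlapping heat shock elements printed above. HSP90AA1, the stress-inducible cytosolic HSP90, had signals of 5029, 12139.5, 10976, 10363 and 11543 at 250 nM, against 6217, 13065, 11520.3, 10961 and 11641 with DMSO. Apart from SkMel-1, which was the dimmest line and moved most, its arrays barely changed, at -0.11 (SE 0.05, 95% interval -0.22 to -0.01, adjusted p = 0.103). HSP90AB1, the constitutive cytosolic form, ranged over 9341 to 10882 at 250 nM and 9497 to 11329.5 with DMSO, with a change of -0.04 (SE 0.04, 95% interval -0.13 to 0.06, adjusted p = 0.52). A second HSP90AB1 probe set averaged -0.19 and was lower in all 5 lines, and 3 further ones for HSP90AA1 gave -0.02 to -0.09. HSP90B1, the form of the endoplasmic reticulum, gave -0.04 (SE 0.08, adjusted p = 0.739), from a probe set of the kind marked as open to cross-hybridisation. A second, dimmer HSP90B1 probe set of that kind averaged -0.18 and was lower in all 5 lines. STIP1, which bridges HSP70 and HSP90, had signals of 1214, 1426, 1807, 1605 and 633 at 250 nM, against 1919.8, 1386, 2099.7, 1902 and 768 with DMSO. It was lower in 4 lines, most in SkMel-1, and slightly higher in SkMel-5, and it did not pass (-0.27, SE 0.10, adjusted p = 0.066). It did pass as a fall with its probe sets averaged (-0.30, adjusted p = 0.0355), with all 12 arrays in 1 fit (adjusted p = 0.047) and without SkMel-5 (-0.35, adjusted p = 0.0336).

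The HSP70 and HSP110 group, counted with the exchange factor HSPBP1, had 10 tested genes, of which 1 fell (10%), 2 rose (20%) and 7 did not pass, with a median of -0.11. With so few genes these shares are near the 13.1% and 15.2% of all genes tested. HSPA14, an HSP70 that sits on the ribosome as a partner of the J protein DNAJC2, had signals of 481, 595, 477, 319 and 649 at 250 nM, against 688, 752, 806, 413 and 744 with DMSO. Each line was lower on the drug, with the widest gap in SkMel-19 and the narrowest in Malme3M, and SkMel-28 was dim at both conditions. The change was -0.43 (SE 0.10, 95% interval -0.64 to -0.21, adjusted p = 0.0126), a 1.34-fold fall. Its partner DNAJC2 also fell, as given with the J proteins.

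HSPA12A, a distant relative of the HSP70 family, had the largest rise of any member. Its signals were 199.5, 258, 664, 585 and 668 at 250 nM, against 202, 126, 396, 257 and 324 with DMSO. SkMel-1 was level (-0.02), and the other 4 lines were higher by 0.73 to 1.15 on the log2 scale. The change over the 5 lines was 0.77 (SE 0.16, 95% interval 0.41 to 1.13, adjusted p = 0.00919), 1.7-fold. HSPA2, an HSP70 best known from the testis, where it is needed for the meiosis of sperm cells, had signals of 724, 1366, 182, 3249.9 and 735 at 250 nM, against 348, 1106, 105, 2387 and 623 with DMSO. All 5 lines were higher, most in SkMel-1, across levels that differed between lines by far more than with the drug. The change was 0.55 (SE 0.12, 95% interval 0.27 to 0.82, adjusted p = 0.0113), 1.46-fold. At 1000 nM HSPA2 was higher than with DMSO in SkMel-19 (0.53) and level in Malme3M (-0.00). It did not pass there (0.26, SE 0.17, adjusted p = 0.34), nor did its 250 nM change in that fit of 2 lines (0.48).

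The main organelle HSP70s did not pass. HSPA5, the main HSP70 of the endoplasmic reticulum, had signals of 2484, 7433, 5274, 6659 and 4691 at 250 nM, against 3939, 7883, 4796, 7804 and 6245 with DMSO. It was lower in 4 lines, most in SkMel-1, and higher in SkMel-19, at -0.25 (SE 0.10, adjusted p = 0.0902), and passed as a fall without that line (-0.35, adjusted p = 0.0369). HSPA9, the mitochondrial HSP70, ranged over 3409 to 7865 at 250 nM and 3479 to 5885 with DMSO and gave 0.09 (SE 0.08, adjusted p = 0.389). HSPH1, an HSP110 that acts as an exchange factor for HSP70, was lower in 4 lines and higher in SkMel-19, at -0.26 (SE 0.09, adjusted p = 0.0682), and passed as a fall without that line (-0.36, adjusted p = 0.0204) or with its probe sets averaged (-0.24, adjusted p = 0.0424). HSPBP1, an exchange factor of the cytosol, was lower in all 5 lines without passing (-0.21, SE 0.08, adjusted p = 0.0731). HSPA4 and HSPA4L, relatives of HSPH1, and HSPA13 had changes of -0.07, -0.15 and -0.01, none of which passed.

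Of the 28 tested J proteins, 5 rose (17.9%) and 4 fell (14.3%), shares near the 15.2% and 13.1% of all genes tested, with a median of 0.06. Its classes are defined by how closely the protein follows the bacterial DnaJ: class A carries all of its domains, class B lacks the zinc-binding part, and class C shares the J domain alone. In class A 1 of 4 fell (25%) and none rose (median -0.19). In class B 4 of 8 rose (50%) and 1 fell (12.5%, median 0.21). In class C 1 of 16 rose (6.25%) and 2 fell (12.5%, median 0.10). No test was made between the classes.

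DNAJA1, an abundant partner of cytosolic HSP70, had signals of 1642, 5030.1, 2596, 2987 and 2309 at 250 nM, against 2426, 5913, 3205, 4864 and 3330.0 with DMSO. Every line was lower, most in SkMel-28 and least in SkMel-5, which was the brightest line at both conditions. The change was -0.46 (SE 0.08, 95% interval -0.64 to -0.29, adjusted p = 0.00317), a 1.38-fold fall. Its heat shock element is the one printed above. The other class A genes, DNAJA2, DNAJA3 (the mitochondrial member) and DNAJA4, gave -0.16, -0.21 and 0.24 without passing, and DNAJA3 was lower in all 5 lines.

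DNAJB1 is a J protein strongly induced in the classical heat shock response. Its signals were 1766, 1491, 2521, 1686 and 1348 at 250 nM, against 2145, 2247, 2543, 2375 and 1929 with DMSO. It was lower by 0.28 to 0.59 in 4 lines and level in SkMel-19 (-0.01). The change was -0.38 (SE 0.09, 95% interval -0.58 to -0.17, adjusted p = 0.0155), a 1.3-fold fall, and it missed the threshold (adjusted p = 0.0547) when SkMel-28 was left out. DNAJB4, a close relative of DNAJB1, moved the other way, with signals of 222, 451, 301, 492 and 267 at 250 nM, against 119.7, 356, 144, 309.7 and 133 with DMSO. All 5 lines were higher, and SkMel-5 moved least. The change was 0.75 (SE 0.12, 95% interval 0.48 to 1.02, adjusted p = 0.00273), 1.68-fold, which made it the rise with the lowest adjusted p among the members.

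The other 3 class B genes that rose were DNAJB2, DNAJB5 and DNAJB9. DNAJB2, a J protein enriched in neurons that delivers clients to the proteasome, had signals of 478, 414, 519, 661 and 644 at 250 nM, against 422, 349, 359, 424 and 372 with DMSO. The drug arrays were higher in all 5 lines, and the lines lay close together without drug, so that in this gene alone among the 57 the mean change exceeded the range over the DMSO arrays (0.47 against 0.27 on the log2 scale). The change was 0.47 (SE 0.11, 95% interval 0.22 to 0.71, adjusted p = 0.0134), 1.38-fold. DNAJB9, a J protein of the endoplasmic reticulum that assists HSPA5, had signals of 1213, 1665, 842, 1593 and 2115 at 250 nM, against 1042, 1423, 592, 1324 and 1231 with DMSO. It was higher in each line, most in Malme3M, and its change was 0.40 (SE 0.10, 95% interval 0.18 to 0.61, adjusted p = 0.0165). DNAJB5, another relative of DNAJB1, was dim, with signals of 34.0, 120.1, 114, 234 and 157 at 250 nM, against 32.0, 86.1, 80.2, 142 and 99.2 with DMSO. Of these, 1 array at 250 nM and 2 with DMSO lay under the filter level of 85.7, all 5 lines were higher on the drug, and the change was 0.44 (SE 0.14, 95% interval 0.14 to 0.75, adjusted p = 0.0386). Without SkMel-5, SkMel-19, SkMel-28 or Malme3M the DNAJB5 call was lost, and that of DNAJB9 without SkMel-19. DNAJB6, DNAJB12 and DNAJB14 gave 0.02, 0.03 and -0.06 and did not pass. DNAJB6 was 0.55 higher in SkMel-1 and at or below its DMSO array in the other 4 lines.

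**Figure D2:**
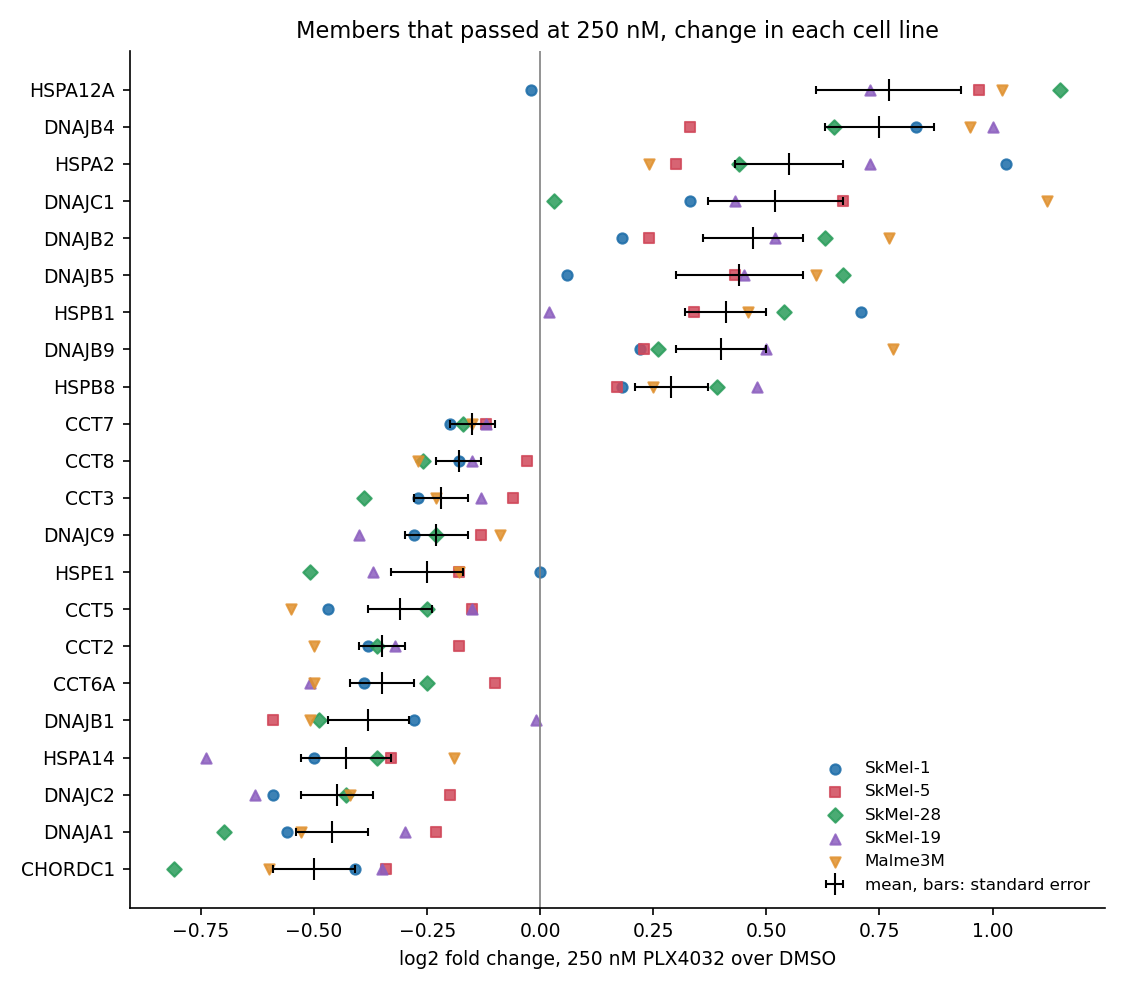
Log2 change at 250 nM PLX4032 over DMSO in each of the 5 lines (1 symbol per line) for the members that passed, 13 that fell and 9 that rose, with the mean and its standard error as black bars. SkMel-1 is the line that did not move for HSPA12A and HSPE1, SkMel-19 the one that did not for DNAJB1 and HSPB1, and SkMel-28 for DNAJC1.

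DNAJC2 is the class C J protein that forms the ribosome-associated chaperone pair with HSPA14 and meets nascent chains as they leave the ribosome. Its signals were 613, 1175, 763, 1119.9 and 1095 at 250 nM, against 927, 1351, 1190.3, 1513 and 1464 with DMSO. Each line was lower, least in SkMel-5. The change was -0.45 (SE 0.08, 95% interval -0.64 to -0.26, adjusted p = 0.00532), a 1.37-fold fall. DNAJC9, which also escorts histones, had signals of 1606, 1026, 2009, 1249.7 and 1603 at 250 nM, against 1955, 1121, 2657, 1467 and 1703 with DMSO. The fall was small in each line, at -0.23 (SE 0.07, 95% interval -0.39 to -0.06, adjusted p = 0.0435), and the call was lost when any 1 line was left out. DNAJC1, a J protein in the membrane of the endoplasmic reticulum, rose, with signals of 310.2, 329, 264, 401 and 581 at 250 nM, against 245, 203, 193, 392 and 260.0 with DMSO. It was higher by 1.12 on the log2 scale in Malme3M and by 0.03 in SkMel-28. The change was 0.52 (SE 0.15, 95% interval 0.18 to 0.85, adjusted p = 0.0303), and the call was lost without any 1 of the lines except SkMel-28. The other 13 class C genes ranged from -0.21 for DNAJC17 to 0.38 for DNAJC13, an endosomal J protein whose mean rested on a change of 1.26 in Malme3M, with 0.28 or less elsewhere.

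Both small heat shock proteins that could be tested rose at 250 nM, where 15.2% of all genes tested rose. With only 2 genes this share says little about the class. At 1000 nM in 2 lines neither passed against DMSO: HSPB1 gave 0.31 (adjusted p = 0.129) and HSPB8 0.43 (adjusted p = 0.0854). HSPB1, which binds unfolded proteins and actin filaments, had signals of 5527, 10373, 10106, 4604 and 9560.2 at 250 nM, against 3373, 8184, 9958, 3164 and 6968 with DMSO. It was higher in 4 lines by 0.34 to 0.71 and level in SkMel-19 (0.02), which with SkMel-5 was the brightest without drug. The change was 0.41 (SE 0.09, 95% interval 0.22 to 0.61, adjusted p = 0.00883), 1.33-fold. HSPB8, which with BAG3 sends clients to autophagy, had signals of 2772, 1269.8, 648, 1469 and 1047 at 250 nM, against 2438, 1128, 463, 1121 and 878 with DMSO. All 5 lines were higher, at 0.29 (SE 0.08, 95% interval 0.12 to 0.47, adjusted p = 0.0213), and the call did not hold without SkMel-28 or without SkMel-19. HSPB2, HSPB3, HSPB6 and HSPB7, mostly genes of muscle, were at 81.3 or lower on every array and were not tested.

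The mitochondrial chamber and its lid differed in their calls. HSPE1, the lid, had signals of 3005, 3726, 2496, 4006 and 2734 at 250 nM, against 3009, 4231, 3238, 5723 and 3093 with DMSO. It was level in SkMel-1 and lower in 4 lines, most in SkMel-28, at -0.25 (SE 0.08, 95% interval -0.42 to -0.08, adjusted p = 0.0385), and the call held in only 1 of the 5 fits that left out a line. HSPD1, the chamber, had signals of 11865, 10095, 10504, 13072 and 9940.0 at 250 nM, against 11106, 11096, 11238, 12343 and 11202 with DMSO. It was higher in SkMel-1 and SkMel-28 and lower in the other 3 lines, at -0.05 (SE 0.05, 95% interval -0.16 to 0.07, adjusted p = 0.519). A second bright HSPD1 probe set averaged -0.16 and was lower in all 5 lines. The difference between the pair was not tested. They lie head to head on chromosome 2 and share the stretch between their starts, where an E-box, CACGTG (a palindrome, so the same on both strands), begins 22 bases before the start of HSPE1. E-boxes bind MYC and related factors. The stretch before the HSPE1 start is shown because the same site counts for both genes (chr2:197500279-197500378, plus strand, E-box in capitals).
HSPE1: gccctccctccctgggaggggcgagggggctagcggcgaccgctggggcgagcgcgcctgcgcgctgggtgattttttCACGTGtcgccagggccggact
An E-box was in a promoter window of 9 of 59 members (15.3%), 13.8% of the tested genes with a window and 7.26% of all promoters, so the members were close to the tested genes. Of the 9, HSPE1 fell, DNAJB9 rose, DNAJC12 was not tested and 6 did not pass, where 13.1% of all genes tested fell and 15.2% rose. A link between the E-box and the change was not tested.

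Most CCT subunits were lower on the drug. Of the 8 tested genes 6 fell (75%), where 13.1% of all genes tested fell, none rose, and the median was -0.20. The falls were of 1.11- to 1.28-fold. CCT2 had signals of 7329, 5963, 5932, 5232 and 4739.5 at 250 nM, against 9511, 6775, 7425, 6705 and 6712 with DMSO. Each line was lower, and except for SkMel-1, the brightest line, every array at 250 nM lay below every array with DMSO. The change was -0.35 (SE 0.05, 95% interval -0.47 to -0.23, adjusted p = 0.00219), the lowest adjusted p of any member. CCT6A had signals of 2391, 4779, 2397, 2700.0 and 1857 at 250 nM, against 3148, 5133, 3411, 3215 and 2640.1 with DMSO. SkMel-5, the brightest line, moved least, and SkMel-19 and Malme3M moved most, giving -0.35 (SE 0.07, 95% interval -0.52 to -0.19, adjusted p = 0.00863). CCT5 had signals of 3274, 5623, 6185, 3653 and 2456 at 250 nM, against 4546, 6220.4, 6854, 4349 and 3604 with DMSO. It was lower in all 5 lines, most in Malme3M and SkMel-1, at -0.31 (SE 0.07, 95% interval -0.48 to -0.15, adjusted p = 0.013).

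The remaining subunits fell less or did not pass. CCT3 ranged over 3341 to 7149 at 250 nM and 4018 to 7441 with DMSO and gave -0.22 (SE 0.06, 95% interval -0.34 to -0.09, adjusted p = 0.0225). CCT8 ranged over 3879 to 4841 at 250 nM and 4691 to 5709 with DMSO, with -0.18 (SE 0.05, 95% interval -0.30 to -0.06, adjusted p = 0.0345). CCT7 ranged over 2757 to 4579 at 250 nM and 3054 to 4983 with DMSO, with -0.15 (SE 0.05, 95% interval -0.26 to -0.04, adjusted p = 0.0453). All 3 were lower in each of the 5 lines. All 3 lost the call when SkMel-1, SkMel-28 or Malme3M was left out, CCT8 also without SkMel-19, and CCT7 without any 1 line. CCT4 had signals of 7127, 8662, 8380.3, 9623 and 7007 at 250 nM, against 7192, 8881, 9146, 9510.0 and 7756 with DMSO. It was level in 3 lines and slightly lower in SkMel-19 and Malme3M, at -0.06 (SE 0.04, 95% interval -0.16 to 0.04, adjusted p = 0.313), and passed as a fall with quantile normalization (-0.11, SE 0.03, adjusted p = 0.0363). CCT6B, a testis-enriched form of CCT6A, was dim and higher in all 5 lines, with signals of 189, 123, 82.2, 138 and 225 at 250 nM, against 172, 63.7, 65.2, 124 and 132 with DMSO. It did not pass (0.42, SE 0.15, adjusted p = 0.0569). SkMel-5 was the line that moved least for CCT2, CCT3, CCT6A and CCT8.

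**Figure D3:**
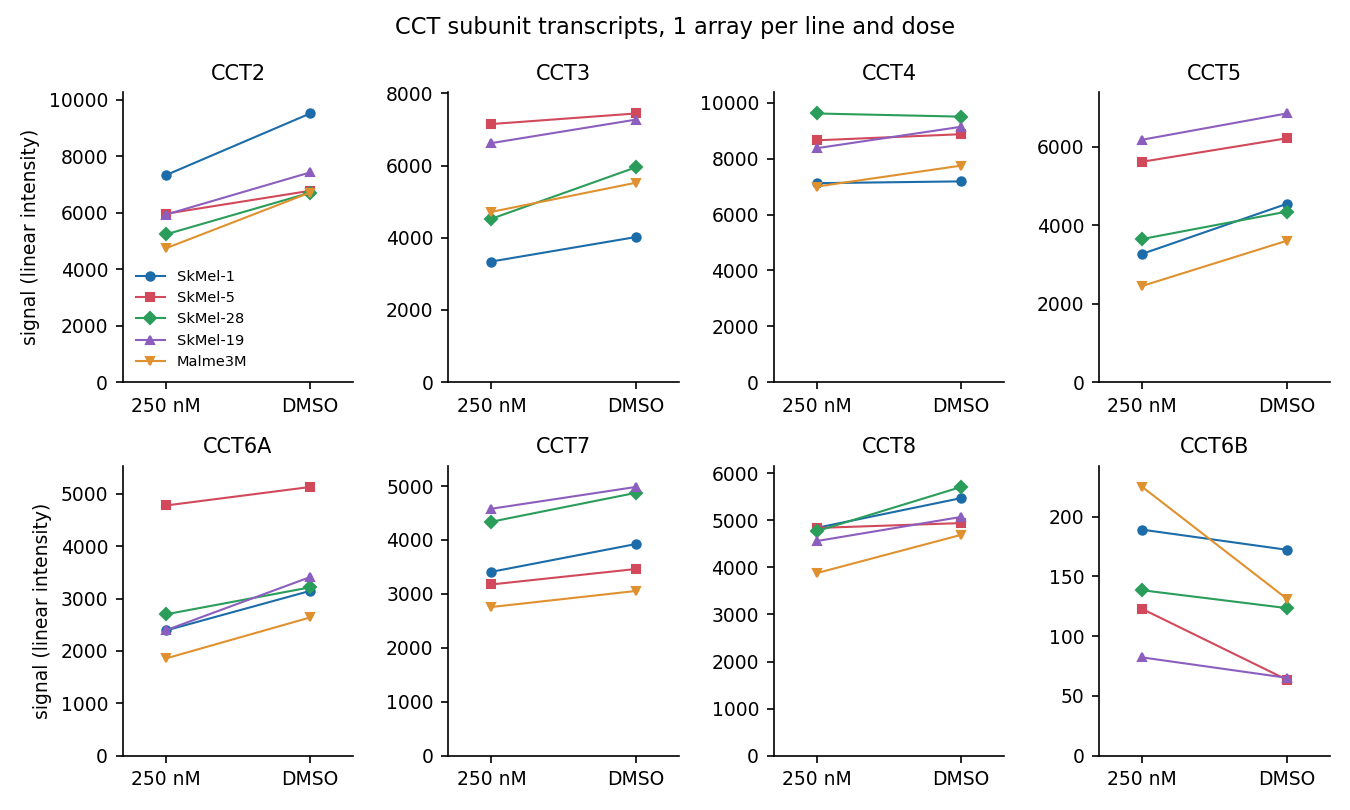
Linear signal (vertical axes from 0) of the 8 CCT genes at 250 nM PLX4032 (left) and with DMSO (right), with each line's pair of arrays joined. Lines slope up to the DMSO side in all 5 lines for CCT2, CCT3, CCT5, CCT6A, CCT7 and CCT8, stay near level for CCT4, and slope the other way for the dim CCT6B.

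HSF1, the regulator itself, had signals of 486, 711, 484, 455 and 332 at 250 nM, against 606, 724, 585, 482 and 379 with DMSO. It was lower in all 5 lines by 0.03 to 0.31 on the log2 scale and did not pass, at -0.17 (SE 0.08, 95% interval -0.36 to 0.02, adjusted p = 0.149). A second, dimmer HSF1 probe set averaged -0.30 and was lower in 4 lines. Of the 7 members with a match to the heat shock element searched, CHORDC1 and DNAJA1 fell. Over all tested members 22.8% fell, and over all genes tested 13.1%. With so few genes no share is read from this count, and a link between the element and the change was not tested. HSP90AA1, HSP90AB1, HSPD1 and DNAJB6 did not pass, and HSPA6 was not tested. HSPA6, an HSP70 that is nearly silent until heat shock, lay just under the level filter (mean log2 6.53, with the filter at 6.61), with signals from 24.1 to 189.3 and a median of 83.0 over the 12 arrays. Without the filter its change was -0.72 (SE 0.21, adjusted p = 0.0576). DNAJC12 was also above the filter level on some arrays (1.5 to 148.4, median 95.5), and the other 7 untested members (CCT8L2, DNAJC28, HSPA1L, HSPB2, HSPB3, HSPB6 and HSPB7) on none. HSPBAP1 shares only its letters with these families and gave 0.11 (SE 0.13, adjusted p = 0.528). CCT8L2 was not counted with the CCT subunits.

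Where a member that passed had other probe sets above the filter level, those had the same sign (the reported probe set is given first): 7 such probe sets for 7 genes gave -0.35 and -0.46 for CCT2, -0.35 and -0.47 for CCT6A, and 0.75 and 0.63 for DNAJB4. The pairs for DNAJA1, DNAJB1, DNAJB9 and DNAJC9 were -0.46 and -0.38, -0.38 and -0.37, 0.40 and 0.20, and -0.23 and -0.20.

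Genes that work with the members but carry other names were counted in 5 lists, 59 tested genes in all, of which 13 fell (22%) and 4 rose (6.78%), where 13.1% of all genes tested fell and 15.2% rose. Of 18 cochaperones 8 fell (44.4%) and 1 rose (5.56%). FKBP4, a prolyl isomerase that docks on HSP90, had signals of 1359, 432, 591, 693 and 508 at 250 nM, against 2896, 568, 984, 1231 and 961 with DMSO. It was lower in all 5 lines, at -0.78 (SE 0.10, 95% interval -1.02 to -0.55, adjusted p = 0.00125), larger in size than the fall of any member. BAG5 and BAG2, regulators of HSP70, gave -0.52 (SE 0.11, adjusted p = 0.00967) and -0.50 (SE 0.12, adjusted p = 0.013). CACYBP, an adaptor that binds HSP90 cochaperone complexes, gave -0.33 (SE 0.10, adjusted p = 0.0364) with SkMel-5 alone higher. ST13, which stabilises HSP70 bound to its substrate, rose (0.18, SE 0.04, adjusted p = 0.015).

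Of 11 genes for prefoldin and tubulin or actin folding, 2 fell (18.2%) and none rose. PFDN2, a prefoldin subunit, had signals of 978, 2949, 1478, 1434 and 1585 at 250 nM, against 1902, 3506, 2132, 2358 and 2281 with DMSO. All 5 lines were lower, at -0.59 (SE 0.10, 95% interval -0.81 to -0.37, adjusted p = 0.00309). PFDN4, another subunit, gave -0.28 (SE 0.07, adjusted p = 0.0175). Of 13 folding genes of the endoplasmic reticulum 1 fell (7.69%) and 2 rose (15.4%). SDF2L1, which works with HSPA5, fell (-0.45, SE 0.10, adjusted p = 0.0138), while SEL1L, part of the disposal route for misfolded proteins, and CANX, a chaperone of glycoproteins, rose (0.38, SE 0.09, adjusted p = 0.0137, and 0.14, SE 0.04, adjusted p = 0.0404). Of 10 mitochondrial folding genes 1 fell and 1 rose (10% each): GRPEL1, the exchange factor of HSPA9, fell (-0.56, SE 0.09, adjusted p = 0.00354) and LONP1, a protease, rose (0.24, SE 0.07, adjusted p = 0.038). Of 9 further genes known to rise with heat shock, 2 fell (22.2%), IER5 (-0.42, SE 0.11, adjusted p = 0.0207) and FKBP4, which is also on the cochaperone list.

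At 1000 nM, which was used on SkMel-19 and Malme3M only, 4 members fell and 4 rose against DMSO (7.02% each way of the 57), where 5.89% of all genes fell and 5.29% rose. The member shares are near those of all genes. DNAJC2 had signals of 1190.3, 763 and 709.7 in SkMel-19 and 1464, 1095 and 1009 in Malme3M with DMSO, at 250 nM and at 1000 nM, with a change at 1000 nM of -0.63 (SE 0.11, adjusted p = 0.023). CCT2 had 7425, 5932 and 5869 in SkMel-19 and 6712, 4739.5 and 4163 in Malme3M in the same order of doses, at -0.51 (SE 0.09, adjusted p = 0.0238). Both genes were lowest at 1000 nM in both lines.

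CCT6A gave -0.47 (SE 0.08, adjusted p = 0.0231) and DNAJA1 -0.48 (SE 0.09, adjusted p = 0.0295). Among the rises, DNAJB4 had signals of 144, 301 and 323 in SkMel-19 and 133, 267 and 300.3 in Malme3M with DMSO, at 250 nM and at 1000 nM, and changed by 1.10 (SE 0.14, adjusted p = 0.00913) at 1000 nM. DNAJC1 gave 0.86 (SE 0.20, adjusted p = 0.0458), HSPA12A 0.78 (SE 0.13, adjusted p = 0.0218) and DNAJB2 0.63 (SE 0.13, adjusted p = 0.0358). The comparisons of both doses share the DMSO arrays of these lines. With SkMel-19 left out, 1 member fell and none rose (CCT2 kept its call), and with Malme3M left out none passed either way. All fits with a line left out take the spread from every array of the lines kept, unlike the main fit. In these the falls numbered 7 without SkMel-5 and the rises 2 without SkMel-28. CCT2, DNAJA1, DNAJB2 and DNAJC1 lost the call with no filter on low signals, and CCT2, CCT6A, DNAJA1 and DNAJC1 with no trend of the variance. HSPA12A lost it with probe sets averaged, with all 12 arrays in 1 fit, and without SkMel-5 or SkMel-28. DNAJC1 also lost it with a pseudocount of 50, with low signals raised to the filter level, with quantile normalization and without SkMel-5, and DNAJB2 with low signals raised and without SkMel-28.

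Between the doses no member passed. With limma 0 of 57 members and 0 of all 7178 genes passed for 1000 nM against 250 nM (0% called in either direction), and at an unadjusted p under 0.05 the counts were 0 and 75. The members with the lowest p were HSP90B1 at 0.14 (SE 0.09, 95% interval -0.09 to 0.37, unadjusted p = 0.184), HSPD1 at 0.08 (SE 0.06, 95% interval -0.05 to 0.22, unadjusted p = 0.187) and DNAJA2 at -0.15 (SE 0.12, 95% interval -0.44 to 0.13, unadjusted p = 0.244). With 2 lines, a change between the doses as small as these could not be resolved.

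**Figure D4:**
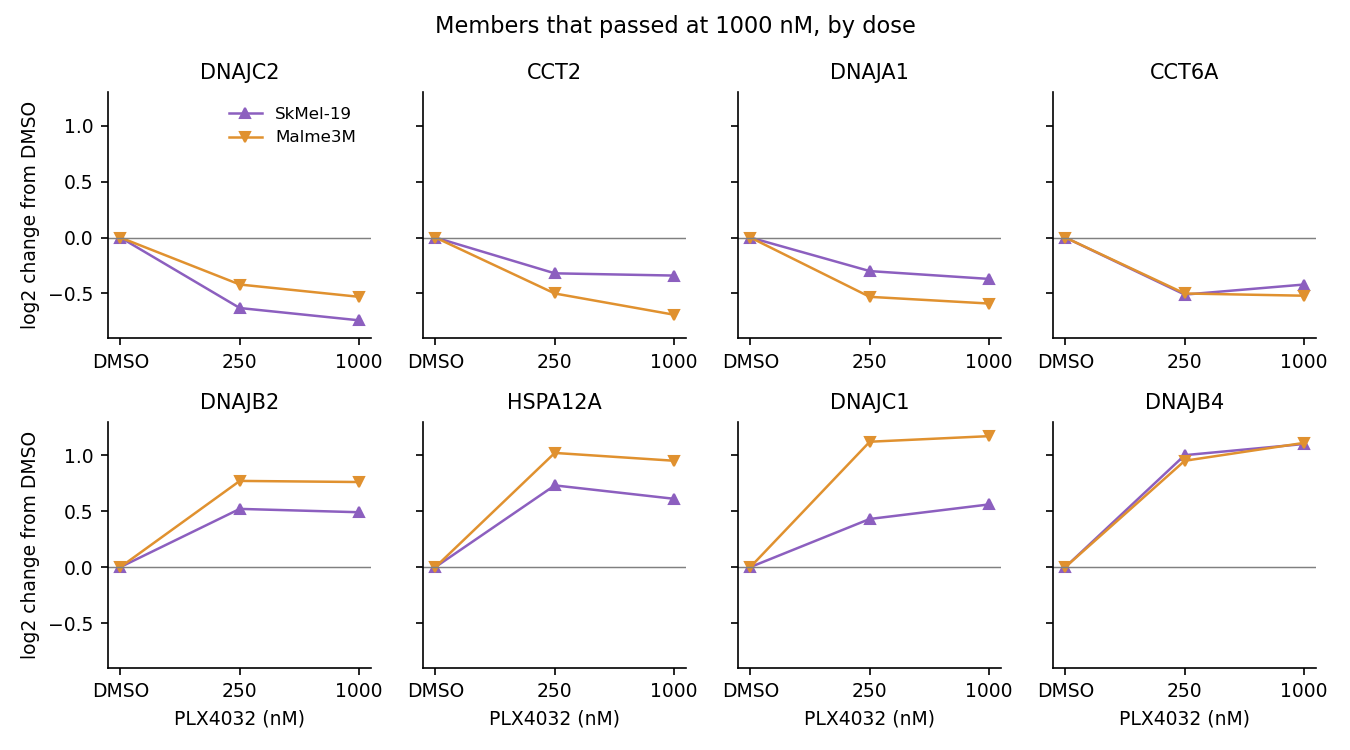
Log2 change from the DMSO array of the same line (vertical axis) with DMSO, 250 nM and 1000 nM PLX4032 (horizontal axis, evenly spaced) in SkMel-19 and Malme3M for the 8 members that passed at 1000 nM; 1 array per point. Most of each change is present at 250 nM.

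In most members the range over the lines with DMSO was wider than the mean change with the drug. Over the 5 DMSO arrays the median range of a tested member was 0.98 on the log2 scale, against 1.15 over all genes tested, and in 56 of 57 members it exceeded the mean change at 250 nM. It was at least 1 in 27 members and at least 2 in 6. A range takes the extremes of 5 arrays and the change is a mean over 5 lines, so the measures are unlike. These counts were not made over all genes tested. DNAJC15, a J protein of the mitochondrial inner membrane, had signals of 2449, 3904, 257, 1359 and 162 at 250 nM, against 2145, 3656, 284, 1174 and 98.9 with DMSO. SkMel-5 and SkMel-1 were bright and Malme3M dim, a 33.1-fold range over the DMSO arrays (of signal + 12), while with drug its change was 0.20 (SE 0.11, adjusted p = 0.196). HSPA2 ranged over 4.36, highest in SkMel-28 and lowest in SkMel-19. HSPB8 ranged over 2.37, highest in SkMel-1 and lowest in SkMel-19. CHORDC1 ranged over 2.29, highest in SkMel-28 and lowest in Malme3M. HSPA4L ranged over 2.25, from 88.5 in SkMel-28 to 465 in SkMel-5. The CCT subunits other than CCT6B had ranges of 0.283 to 0.956, all under the members' median of 0.98. CCT3, CCT5 and CCT6A lay near that median (0.89, 0.92 and 0.96). With 1 array per line these differences have no test.

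**Figure D5:**
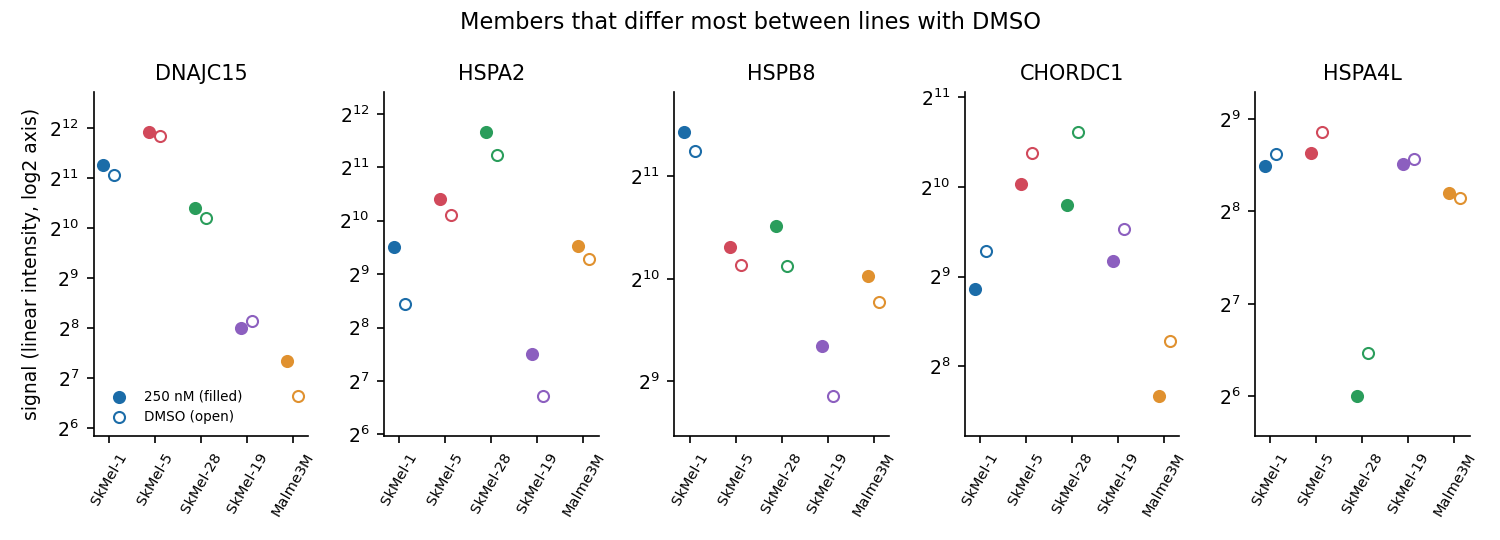
Signal (linear intensity on a log2 axis) of the 5 tested members with the widest range over the DMSO arrays, by line, with 250 nM PLX4032 as filled points left of DMSO as open points. Within each line the pair lies close together next to the spread between lines, which reaches 33.1-fold for DNAJC15.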

How the data were processed

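RNA from 12 cultures was measured on Affymetrix arrays. The deposited table holds 1 linear intensity per probe set and array, made by the authors with GCOS, per the submitters' processing notes, and the probe summary and background treatment are not given in the sources used here. Of 22215 probe sets that are not controls, 19064 had a single gene symbol, and the one with the highest mean stood for each gene.

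The values were used as deposited: each array's mean without its lowest and highest 2% was 500.13 to 500.15, so the arrays share a scale. Log2(value + 12), where 12 is near the 20th percentile of all values (11.7), was tested with limma 3.58.1 in R 4.3.3 (lmFit, eBayes with trend) and cell line as a block, over the 7178 genes whose mean reached the 40th percentile (log2 6.61). P-values were Benjamini-Hochberg adjusted over all of these, with a threshold of 0.05. The fit at 250 nM had 10 arrays and 4 residual degrees of freedom. That at 1000 nM had the 6 arrays of 2 lines and 2 residual degrees of freedom. The line names in the labels give the pairing. The deviations from the group means had r of 0.898 to 0.931 within a line and at most -0.135 across lines. Subtracting the group means itself pushes r across lines below 0, so that contrast is not a separate test of the pairing. The number of arrays limits the precision. The scripts were tested on simulated data.

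Alternatives were another pseudocount (1 or 50), low signals raised to the filter level, no filter, array centring, quantile normalization, the mean of a gene's probe sets, no block, no variance trend, all 12 arrays in 1 fit and each line left out. The members, lists and tests were chosen with earlier results of these data known. Genes described are the members that passed at 250 nM (every array for the 10 largest falls and up to 10 largest rises), well-known members whatever their result, members that passed at 1000 nM, the 3 lowest p between doses, the 5 widest ranges over lines, and up to 4 genes per further list. The members named beyond that rule, and the E-box search, were chosen after their values were seen. Promoter sequences come from RefSeq (GRCh38.p14).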

Additional observations from a re-analysis of the deposited data

Results flagged for a closer look

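Of 58 sets of 5 arrays examined, 1 had an array far from the rest, where chance alone gives about 1 in 20. The log2 signal of HSPA14 with DMSO in SkMel-28 was 8.73, and the other 4 lines lay between 9.45 and 9.68, a gap of 0.761 of the whole range (critical value 0.71 for 5 arrays). HSPA14 is also lowest in SkMel-28 at 250 nM, and its fall held when that line was left out.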

How the results depend on the processing

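For the 57 members at 250 nM, all 13 falls and 9 rises kept their sign under every alternative run. The count of falls was 8 without the variance trend, and it was 7 to 11 as each line was left out, while the rises then numbered 5 to 8. With no replicate block 0 fell and 0 rose (12 and 1 of all genes tested), since the spread between lines then enters the error. At 1000 nM the falls numbered 2 with no filter, 1 without the variance trend and 0 with no replicate block, and the rises 2 with low signals raised, 2 with no filter and 0 with no replicate block. Fits at 1000 nM with a line left out took in all arrays of the lines kept, unlike the main fit on 2 lines. They therefore differ from it in more than the line left out. In these the falls numbered up to 7 and the rises up to 4. Of all genes tested at 1000 nM, 380 rose and 423 fell, against 210 and 262 with low signals raised, 195 and 250 with no filter, 243 and 287 without the variance trend, 31 and 83 without SkMel-19, and 12 and 34 without Malme3M. At 250 nM they were 1088 and 941, against 638 and 650 without SkMel-19 and 654 and 685 without Malme3M. Between doses the counts stayed at 0, and HSPD1 between doses was -0.03 without SkMel-19, in a fit that also draws the 250 nM change from lines with no 1000 nM array, while the pair of arrays in Malme3M itself differed by 0.04. The causes were not tested where none is named. DNAJB5, HSPA6 and DNAJC12 are limited by signal near the filter level, and the other 7 untested members lay below it on every array.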
